A study of Homo sapiens with 10 samples.

Results

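The mitosis, kinetochore and spindle genes are 59 genes whose products carry a cell from the G2/M transition to cytokinesis. They were chosen by symbol, and all 59 were found by Ensembl identifier among the 61587 rows of the gene count table. Each of them passed the limit of 200 counts summed over all samples, as did 19006 genes in total. Bulk RNA-seq of polyadenylated RNA was performed on RPTEC/TERT1 cells, a line of human renal proximal tubule epithelial cells immortalised with telomerase. The labels number the line differently in each sample, while the series description names RPTEC/TERT1 for both groups, and all samples were taken to be of that line. A group of 5 samples received 10 Gy of irradiation and a group of 5 samples was not irradiated (controls), and RNA was taken from both on day 7. The study irradiated these cells to induce senescence. The replicate numbers 1 to 5 occur in both groups and were taken to pair an irradiated sample with a control. The sources do not say whether the replicates were separate cultures, so p-values measure the spread between these samples, which may be technical. In both groups, replicates 4 and 5 were more alike than any other 2 replicates. Their counts differed by a mean chi-square per gene of 13.1 in controls, against 47.9 to 187 for any other 2 controls. In irradiated samples the values were 7.68 and 35.4 to 81.5. Why these 2 replicates were alike was not tested, and they may not count as independent samples.

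At entry into mitosis the kinase CDK1 is activated by its cyclins, chromosomes are condensed by condensin and topoisomerase II, and a bipolar spindle is built by motor proteins. Kinetochores assemble on centromeric chromatin and bind the spindle microtubules, while the spindle checkpoint holds back the anaphase-promoting complex until every chromosome is attached. Most genes of this machinery are transcribed mainly in G2 and mitosis. In resting cells and in cells arrested through p53 they are repressed by the DREAM complex, which binds a promoter element named the cell cycle genes homology region (CHR), often near CCAAT boxes bound by NF-Y. In kidney tubules cells divide rarely, and mitotic transcripts appear mainly during repair after injury.

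The depth ranged from 78081911 to 131555873 counts in controls and from 66269311 to 101594948 counts in irradiated samples. The labelled cell type was checked against marker genes, in CPM, which here scale each gene's counts by the TMM-normalised sample total. All 8 renal epithelial markers were present, with a summed level of 2944 to 3406 CPM in control and 3181 to 4542 CPM in irradiated samples. Of 10 markers of mature proximal tubule, 4 were present, ANPEP (188.4 to 462.9 CPM), GGT1 (7.05 to 14.2), CUBN (3.24 to 5.92) and AQP1 (1.04 to 2.07). The other 6 stayed under 1 CPM in every sample, among them LRP2 (0.0540 CPM at most), SLC34A1 (0.131) and HNF4A (0.0435). This list summed to 208.5 to 384.4 CPM in control and 234.7 to 481.6 in irradiated samples. Fibroblast markers summed to 15.9 to 23.5 CPM in control and 28.6 to 40.1 in irradiated samples, mostly from COL1A1 (15.2 to 23.2 against 26.8 to 39.1), and 5 of the 7, COL1A2, COL3A1, PDGFRA, PDGFRB and LUM, were at 0.179 CPM or less. The remaining fibroblast marker, DCN, was at 0.110 to 0.522 CPM in control and 0.454 to 4.45 in irradiated samples. The 6 endothelial markers summed to 1.32 to 2.45 against 4.20 to 6.10 CPM, with CDH5 at 0.361 to 0.984 against 1.85 to 4.24 and KDR at 0.00997 CPM or less. The 6 leukocyte markers summed to 0.571 to 0.881 against 1.87 to 2.58 CPM, with ITGAM at 0.0168 to 0.0787 against 0.853 to 1.71 and CD3E at 0.0149 CPM or less. The sums of these last 3 lists were higher in irradiated samples, and their part in the values of the mitotic genes was not tested.

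Nearly all of the 59 mitotic genes listed here were lower in irradiated than in control RPTECs. Of the 59 genes, 58 were lower past the threshold of 0.05 in edgeR's quasi-likelihood test, fitted with replicate number as a block, with Benjamini-Hochberg adjusted p-values over all genes tested. The share of all genes called lower in the same test was 22.7%. None of the 59 was called higher (0 genes, against 23.9% of all genes), and 0 were higher at an unadjusted p-value under 0.05 by edgeR, DESeq2 or limma-voom. A fall of more than 2-fold was found for 47 of them, against 4.06% of all genes. Their median log2 fold change was -1.82, compared with -0.01 over all genes tested, and 52 of the 59 lay under the fifth percentile of all genes (-0.88). The single gene that did not pass was ECT2, with a log2 fold change of 0.10 ± 0.13 (SE, adjusted p = 0.558 in edgeR). Tested against a fall of 2-fold in place of 0 (glmTreat), 18 genes passed, and the share of all genes that passed was not counted. In bulk RNA, fewer dividing cells and less mitotic RNA in each cell cannot be told apart.

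**Figure D1:**
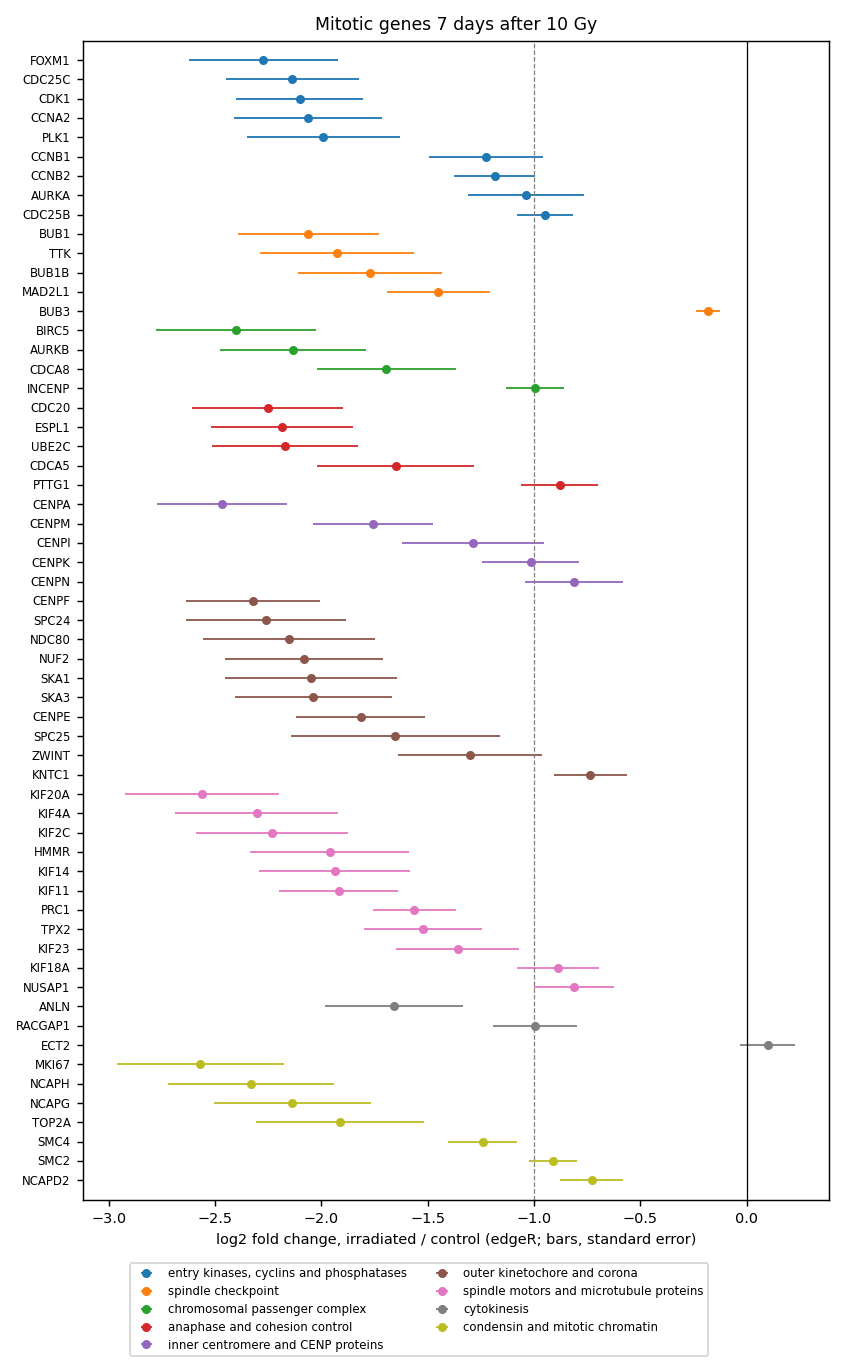
Fitted log2 fold change of each of the 59 mitotic genes, irradiated against control, grouped and coloured by role; bars are standard errors and the dashed line marks a 2-fold fall. Of the points, 58 lie left of 0 and pass the test, and ECT2, at 0.10, is the only one right of 0.

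The fall showed in single samples, though its size differed between pairs. Every irradiated sample lay under every control sample for 50 of the 59 genes, a pattern that 12.0% of all genes showed. The groups overlapped for AURKA, BUB3, PTTG1, CENPI, CENPN, SPC25, ZWINT, ECT2 and RACGAP1. The irradiated sample was the lower in all 5 pairs for 54 genes, against 25.0% of all genes. Within pairs, 288 of 295 comparisons were lower in the irradiated sample. The 7 others were small differences of BUB3 (0.02) and CENPN (0.05) in pair 1 and of SPC25 (0.19) and ZWINT (0.16) in pair 3, and those of ECT2 in pair 1 (0.62), pair 3 (0.30) and pair 4 (0.02), all on the log2 scale. The median log2 difference of the 59 genes was -0.84 in pair 1 and -0.76 in pair 3, but -2.76 in pair 2, -2.36 in pair 4 and -2.43 in pair 5.

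The pairs with small differences were those whose controls were already low. Control replicates 1 and 3 were the lowest 2 controls for 57 of the 59 genes, against 20.7% of all genes. Among irradiated samples, replicate 2 was the lowest for 51 genes, against 25.5% of all genes, and its total count was the lowest of the 10 samples. The ratio of the highest to the lowest control sample had a median of 2.92 over the mitotic genes and 1.40 over all genes. Among irradiated samples the medians were 1.67 and 1.31, and 58 of the mitotic genes varied more between controls than between irradiated samples. The share of all genes that did so was not counted. CDKN1A, which encodes the cell cycle inhibitor p21, stood at 207.6 CPM in control replicate 3 but at 80.9 in control replicate 1, where the other controls were at 66.7 to 80.3. With both samples of replicates 1 and 3 left out, 58 of the 59 genes were again called lower, 55 by more than 2-fold, and the median log2 fold change was -2.50. The part of these samples' own state in the size of the falls was not tested.

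**Figure D2:**
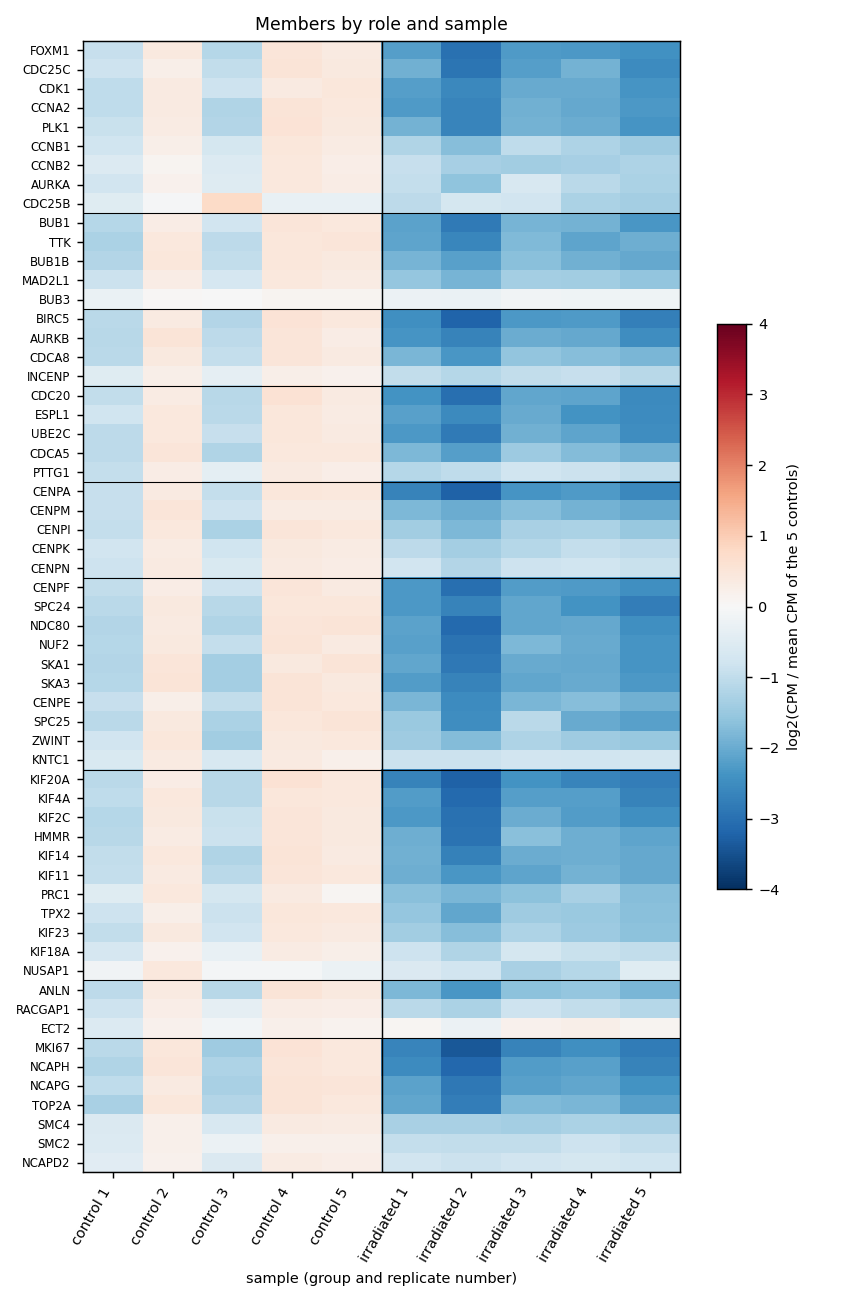
Level of each mitotic gene in each sample as log2 of its CPM over the mean CPM of the 5 controls, with genes in rows by role and samples in columns; blue is lower and red higher. Control replicates 1 and 3 are paler or bluer than the other controls for 57 genes, and the irradiated columns are bluer still in most rows, while the rows of BUB3 and ECT2 stay nearly white.

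Promoter sequences from RefSeq (GRCh38.p14) were held for 49 of the 59 genes, as windows from 250 bases before to 50 bases after a transcription start. Names with no entry were AURKA, BIRC5, BUB3, CENPM, FOXM1, KNTC1, RACGAP1, TPX2, TTK and UBE2C. The 150 bases before the start are shown for genes of entry (PLK1, CCNB1, CCNB2), anaphase (CDC20) and the checkpoint (BUB1), and for ECT2, the gene that did not pass the test. Capitals mark matches on either strand to CCAAT and to the CHR motif, whose letters are TTTGAA. In the order of the lines, from PLK1 to ECT2, these bases lie at chr16:23678739-23678888 (plus strand), chr15:59104996-59105145 (plus strand), chr1:43358831-43358980 (plus strand), chr5:69167000-69167149 (plus strand), chr2:110678064-110678213 (minus strand) and chr3:172750576-172750725 (plus strand, the first of the 2 ECT2 starts).
PLK1: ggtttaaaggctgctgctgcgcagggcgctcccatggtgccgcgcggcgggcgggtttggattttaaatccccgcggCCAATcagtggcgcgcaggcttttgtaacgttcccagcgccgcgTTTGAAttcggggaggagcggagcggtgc
CCNB2: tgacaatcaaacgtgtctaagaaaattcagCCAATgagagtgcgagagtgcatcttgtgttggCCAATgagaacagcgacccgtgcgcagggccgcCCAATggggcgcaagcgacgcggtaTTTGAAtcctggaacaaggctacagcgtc
CDC20: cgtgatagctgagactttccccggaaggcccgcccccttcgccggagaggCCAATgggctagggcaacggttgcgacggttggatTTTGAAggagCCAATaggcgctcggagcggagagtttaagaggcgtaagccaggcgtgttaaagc
CCNB1: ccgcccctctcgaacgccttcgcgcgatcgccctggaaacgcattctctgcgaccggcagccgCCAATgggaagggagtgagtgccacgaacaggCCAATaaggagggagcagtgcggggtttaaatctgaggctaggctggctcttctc
BUB1: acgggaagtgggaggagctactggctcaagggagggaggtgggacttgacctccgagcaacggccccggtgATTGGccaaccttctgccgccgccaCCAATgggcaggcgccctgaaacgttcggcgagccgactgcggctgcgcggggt
ECT2: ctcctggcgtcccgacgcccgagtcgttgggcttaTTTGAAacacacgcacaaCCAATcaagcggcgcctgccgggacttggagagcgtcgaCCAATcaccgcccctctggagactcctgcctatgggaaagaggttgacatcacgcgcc

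Counted back from the start, with -1 the base just before it, the CHR match in the bases shown lay at -29 to -24 in PLK1 and in CCNB2, at -65 to -60 in CDC20 and at -115 to -110 in ECT2. Outside the bases shown, CDC20 had a second match at -178 to -173 and ECT2 a match at 34 to 39, with the first transcribed base at 0. The window of the other ECT2 start held 2 matches, at -242 to -237 and at -182 to -177 from that start. That at -242 is the same site as the match at 34 to 39 of the first start. CCNB2 carried CCAAT at -120, -87 and -54, and CCNB1 at -87 and -55. CCNB1 and BUB1 held no CHR match in the window. A CHR match was found in 35 of the 49 genes with a promoter (71.4%), compared with 18.2% of 27305 genes with one and 13.8% of the 12289 genes that were also tested here. CCAAT was held by 36 genes (73.5%, against 39.7% and 42.6%), and both motifs by 26 genes (53.1%, against 7.26% and 5.78%). The related palindrome TTCGAA occurred in 4 genes (8.16%, against 1.82% and 2.26%), BUB1 among them just after its start. The E2F-type motif GCGGGAA occurred in 8 genes (16.3%, against 7.82% and 12.1%). Both strands were searched, and matches of different motifs could overlap. In the 50 bases before the start, 37.1% of 62 windows of mitotic genes held a CHR match, compared with 2.56% of all windows. These 62 windows belong to the 49 genes, and some overlap, so that a site can be counted more than once, as in ZWINT. The median log2 fold change was -1.91 for the 35 genes with a CHR match and -1.94 for the 14 without. A match is a run of letters and does not show binding.

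**Figure D3:**
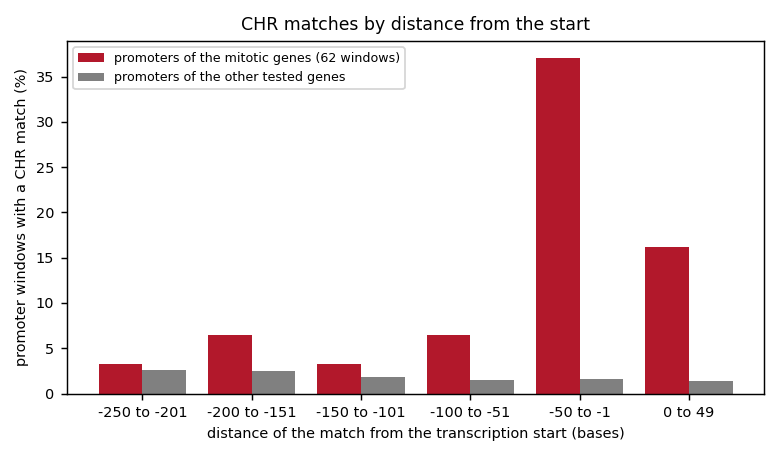
Share of promoter windows with a CHR match (TTTGAA on either strand), in percent, in bins by distance from the transcription start in bases, for 62 windows of mitotic genes and for windows of the other tested genes. The mitotic genes reach 37.1% in the bin from -50 to -1 and 16.1% in the bin from 0 to 49, where the other tested genes are at 1.58% and 1.41%.

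All 9 genes for kinases, cyclins, phosphatases and the transcription factor of mitotic entry were lower, 8 of them by more than 2-fold (median log2 fold change -1.99). CDK1, the kinase that drives mitosis, lies on chromosome 10 of GRCh38 from 60778331 to 60794852. Its level in control replicates 1 to 5 was 9.48, 25.0, 11.0, 24.9 and 26.4 CPM, and in irradiated replicates 1 to 5 it was 4.22, 3.21, 4.79, 4.79 and 3.75 CPM. The irradiated samples all lay under the lowest control, and the log2 fold change was -2.10 ± 0.30 (SE, adjusted p = 0.00102 in edgeR). CCNB1, which encodes cyclin B1, the mitotic partner of CDK1, stood at 25.5, 52.5, 27.1, 61.4 and 55.6 CPM in controls and at 19.1, 13.8, 22.0, 18.8 and 16.5 in irradiated samples. Its fall, at a log2 fold change of -1.23 ± 0.27 (SE, adjusted p = 0.00731), kept 40.6% of the control mean, whereas CDK1 kept 21.5%. The other mitotic cyclins moved in the same direction, CCNB2 by -1.19 and CCNA2 by -2.06 on the log2 scale.

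PLK1, on chromosome 16 from 23677656 to 23690367, encodes the polo-like kinase that acts at centrosomes, kinetochores and the midzone. It was at 13.9, 32.2, 11.3, 37.2 and 33.6 CPM in control replicates 1 to 5 and at 6.92, 4.12, 6.88, 6.48 and 5.03 CPM in irradiated replicates 1 to 5, a log2 fold change of -1.99 ± 0.36 (SE, adjusted p = 0.00314). The gene with the largest fall at entry was FOXM1, a transcription factor that activates many G2/M genes. FOXM1 stood at 12.5, 31.3, 10.8, 33.5 and 30.7 CPM in controls and at 5.20, 2.97, 4.90, 4.86 and 4.40 in irradiated samples, with a log2 fold change of -2.27 ± 0.35 (SE, adjusted p = 0.00146). The groups were apart for both genes. AURKA, the centrosomal Aurora kinase, fell by 1.04 (adjusted p = 0.0158), and its highest irradiated sample (14.1 CPM) lay above its lowest control (13.0). AURKA did not pass without replicate 4 (adjusted p = 0.0584) or 5 (0.0668).

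The phosphatases CDC25B and CDC25C, which activate CDK1, differed in level and in size of fall. CDC25C fell by 2.14 on the log2 scale, from a control mean of 2.50 ± 1.08 CPM (SD, n = 5) to 0.528 ± 0.146 (SD, n = 5). CDC25B had the smallest fall at entry, at -0.95 ± 0.13 (SE, adjusted p = 0.000913). It was at 85.8, 116.3, 204.8, 98.3 and 98.3 CPM in controls and at 58.8, 74.6, 71.3, 49.7 and 47.2 in irradiated samples. Control replicate 3 was the highest sample of CDC25B, and CDC25B and NUSAP1 were the 2 genes in which control replicates 1 and 3 were not the lowest 2 controls.

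The 5 spindle checkpoint genes were all lower, 4 of them by more than 2-fold. BUB1 encodes a kinase that recruits checkpoint proteins to kinetochores and lies on chromosome 2 from 110637528 to 110678063. Its controls 1 to 5 stood at 8.48, 23.2, 11.1, 26.0 and 25.0 CPM and its irradiated samples at 4.22, 2.63, 5.18, 5.04 and 3.77, a log2 fold change of -2.06 ± 0.33 (SE, adjusted p = 0.0018). BUB1B, a subunit of the mitotic checkpoint complex that inhibits CDC20, fell by 1.77 and the checkpoint kinase TTK by 1.93 on the log2 scale. MAD2L1, whose product MAD2 binds CDC20, stood at 10.6, 23.7, 12.0, 25.8 and 24.3 CPM in controls and at 6.58, 5.35, 7.55, 7.36 and 6.39 in irradiated samples. Its log2 fold change was -1.45 ± 0.24 (SE, adjusted p = 0.00221), and its groups did not overlap.

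BUB3, the WD-repeat partner that carries BUB1 and BUB1B to kinetochores, had the smallest fall of the checkpoint genes. It was at 69.7, 85.2, 82.2, 89.1 and 90.0 CPM in controls and at 70.9, 69.9, 75.8, 74.5 and 74.1 in irradiated samples, so that 87.8% of the control mean was kept. The log2 fold change of -0.18 ± 0.06 (SE, adjusted p = 0.0296) was called with replicate number as a block. Without the block, or without replicate 2, 4 or 5, it was not called (adjusted p between 0.0517 and 0.129). The ratio of BUB1 to BUB3 in a sample was 0.122 to 0.292 in controls and 0.0376 to 0.0684 in irradiated samples. That of BUB1B to BUB3 was 0.0962 to 0.256 and 0.0504 to 0.0654. These ratios of CPM, like the others given for complexes, were picked after the values were seen and are descriptions without a test.

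**Figure D4:**
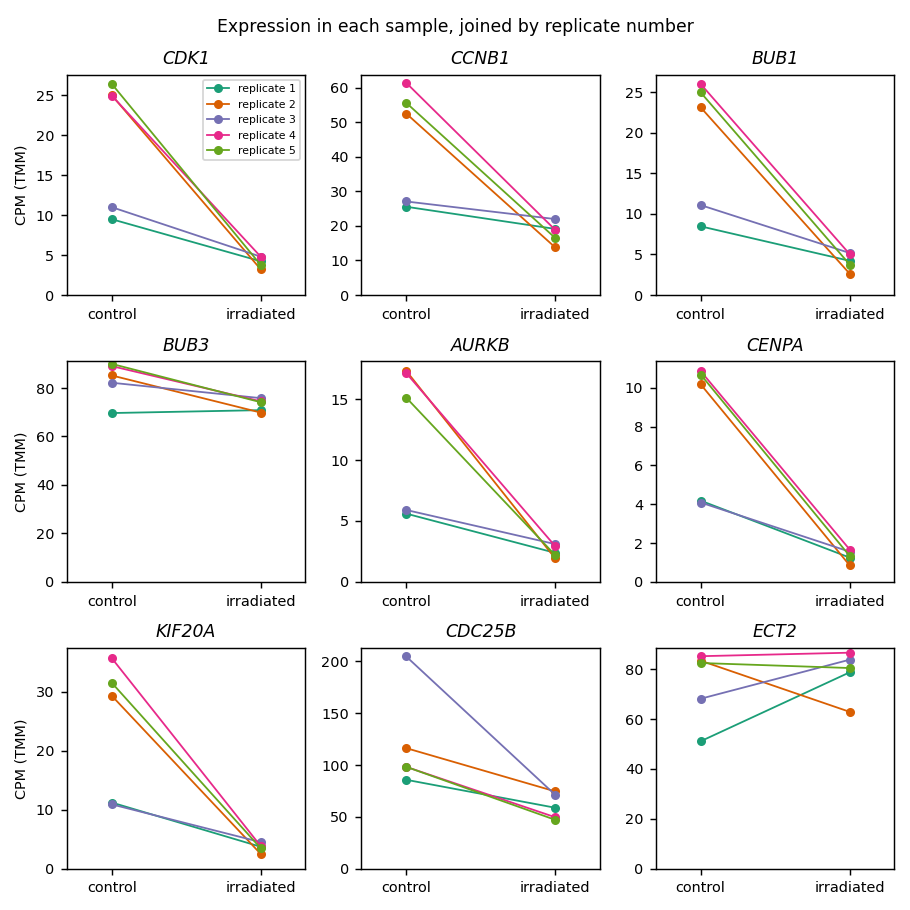
CPM of 9 mitotic genes in each control and irradiated sample, with a line joining samples of the same replicate number. For CDK1, BUB1, AURKB, CENPA and KIF20A the lines of replicates 2, 4 and 5 fall steeply and those of replicates 1 and 3 start from low controls, while BUB3 is nearly level, CDC25B has a high control replicate 3 (204.8 CPM) and ECT2 has lines in both directions.

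The 4 genes of the chromosomal passenger complex, which corrects faulty attachments and later directs cytokinesis, were lower with no overlap between groups. AURKB, its kinase, stood at 5.60, 17.3, 5.90, 17.1 and 15.1 CPM in control replicates 1 to 5 and at 2.38, 1.93, 3.10, 2.93 and 2.19 CPM in irradiated replicates 1 to 5. Its log2 fold change was -2.13 ± 0.34 (SE, adjusted p = 0.00177). BIRC5, which encodes survivin, was at 14.6, 39.6, 13.8, 45.3 and 42.0 CPM in controls and at 5.64, 3.40, 6.31, 6.41 and 4.69 in irradiated samples, the largest fall of the complex (-2.40 ± 0.38 SE, adjusted p = 0.0016). The smallest was that of the scaffold INCENP, at 35.7, 58.8, 39.2, 59.4 and 56.8 against 25.3, 22.4, 25.0, 26.6 and 23.4 CPM (-0.99 ± 0.14 SE, adjusted p = 0.000845). CDCA8, the borealin subunit, lay between them at -1.70. The ratio of AURKB to INCENP was 0.151 to 0.295 in controls and 0.0859 to 0.124 in irradiated samples, and that of BIRC5 to INCENP 0.351 to 0.764 and 0.152 to 0.252. That of CDCA8 to INCENP, at 0.168 to 0.302 and 0.114 to 0.172, overlapped between groups.

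The 5 genes of anaphase and cohesion control were lower, 4 of them by more than 2-fold. CDC20, the activator of the anaphase-promoting complex and the target of the checkpoint, stood at 16.3, 41.2, 15.1, 48.8 and 41.8 CPM in controls and at 6.26, 4.06, 7.76, 7.52 and 5.63 in irradiated samples (log2 fold change -2.25 ± 0.35 SE, adjusted p = 0.00161). UBE2C, the ubiquitin-conjugating enzyme of that complex, fell by 2.17 and ESPL1, which encodes the cohesin protease separase, by 2.19. CDCA5, the sororin that protects cohesin, fell by 1.65. PTTG1 encodes securin, the inhibitor of separase, and had the smallest fall of these genes. It was at 8.65, 20.4, 12.8, 21.7 and 20.2 CPM in controls and at 7.59, 8.36, 9.64, 9.31 and 8.45 in irradiated samples, with a log2 fold change of -0.88 (adjusted p = 0.0057). Only control replicate 1 lay within the range of the irradiated samples. UBE2CP5, a pseudogene copy of UBE2C, held 16.9% as many counts as UBE2C, and its log2 fold change was 0.22 (adjusted p = 0.164). Reads of UBE2C that matched such copies equally well may be missing from its counts.

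Of the 15 kinetochore genes, all were lower and 13 fell by more than 2-fold, with a median log2 fold change of -1.82. CENPA encodes the histone variant that marks centromeric chromatin and lies on chromosome 2 from 26764289 to 26801067. It was at 4.18, 10.2, 4.09, 10.9 and 10.7 CPM in control replicates 1 to 5 and at 1.25, 0.851, 1.55, 1.67 and 1.33 CPM in irradiated replicates 1 to 5. The log2 fold change of -2.47 ± 0.31 (SE, adjusted p = 0.000554) was the largest fall of the inner centromere group, and 16.7% of the control mean was kept. CENPN, which reads CENPA nucleosomes, had the smallest, at 6.73, 15.3, 7.82, 15.2 and 14.5 against 6.94, 5.30, 6.75, 6.85 and 6.35 CPM. Its log2 fold change was -0.81 (adjusted p = 0.0227), and irradiated replicates 1, 3 and 4 lay above control replicate 1. Without replicate 2, 4 or 5 CENPN did not pass (adjusted p of 0.0590 to 0.0900). The other members of the constitutive network lay between these, CENPM at -1.76, CENPI at -1.29 and CENPK at -1.02. CENPI was not called without replicate 4 (adjusted p = 0.0579) or 5 (0.0658). The ratio of CENPA to CENPN was 0.523 to 0.736 in controls and 0.161 to 0.243 in irradiated samples.

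In the outer kinetochore 10 of 10 genes were lower and 9 fell by more than 2-fold (median -2.04). NDC80, whose product grips microtubules as part of the complex of the same name, was at 4.78, 13.9, 4.74, 15.1 and 15.4 CPM in controls and at 2.45, 1.24, 2.58, 2.62 and 1.97 in irradiated samples (log2 fold change -2.15 ± 0.41 SE, adjusted p = 0.00382). The other subunits of the complex had log2 fold changes of -2.08 (NUF2), -2.26 (SPC24) and -1.65 (SPC25). The ratio of NDC80 to NUF2 was 1.41 to 1.85 in controls and 1.38 to 1.71 in irradiated samples and overlapped between groups. That of SPC24 to NDC80, at 0.919 to 1.02 and 0.755 to 1.31, overlapped too. The ratio of SPC25 to NDC80 was 0.493 to 0.563 in controls and 0.535 to 1.03 in irradiated samples, and in each of the 5 pairs the irradiated sample had the higher ratio. SPC25 was the least certain of the complex (adjusted p = 0.0269), and irradiated replicate 3 (2.66 CPM) lay above control replicate 3 (2.33). SPC25 did not pass without replicate 2, 4 or 5, with an adjusted p of 0.0713 to 0.101. SKA1 and SKA3, of the complex that follows microtubule ends, fell by 2.05 and 2.04.

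The corona and other outer proteins spanned the range of the kinetochore. CENPF, a large corona protein of G2 and mitosis, stood at 48.6, 119.8, 55.0, 136.4 and 125.7 CPM in controls and at 19.7, 11.9, 20.8, 20.2 and 17.7 in irradiated samples, the largest fall of the outer kinetochore (-2.32 ± 0.32 SE, adjusted p = 0.00082). The kinesin CENPE fell by 1.82. ZWINT, a protein that binds KNL1 in the outer kinetochore, fell by 1.30 (adjusted p = 0.0155), with control replicate 3 at 9.37 CPM within the irradiated range. Without replicate 4 or 5 it was not called (adjusted p of 0.0572 and 0.0661). KNTC1, the ROD protein of the complex that brings dynein to kinetochores, had the smallest fall. It stood at 16.4, 31.5, 15.7, 31.5 and 28.6 CPM in controls and at 13.7, 13.6, 14.5, 14.3 and 15.0 in irradiated samples (log2 fold change -0.74 ± 0.17 SE, adjusted p = 0.01). The groups of KNTC1 did not overlap, although control replicate 3 and irradiated replicate 5 were close.

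All 11 genes for spindle motors and microtubule proteins were lower, 9 of them by more than 2-fold, and in none did the groups overlap (median log2 fold change -1.92). KIF20A, a kinesin of the central spindle, had the largest fall. It stood at 11.2, 29.3, 10.9, 35.7 and 31.5 CPM in control replicates 1 to 5 and at 3.72, 2.51, 4.51, 3.83 and 3.47 CPM in irradiated replicates 1 to 5, a log2 fold change of -2.56 ± 0.36 (SE, adjusted p = 0.00102). KIF11, the kinesin that pushes spindle poles apart, was at 13.7, 33.6, 12.6, 36.9 and 35.4 against 6.78, 5.32, 6.17, 7.11 and 6.34 CPM (-1.92 ± 0.28 SE, adjusted p = 0.00115). TPX2, which activates AURKA and nucleates microtubules, was at 31.0, 65.4, 30.5, 76.3 and 74.0 against 18.9, 13.2, 20.7, 20.0 and 17.5 CPM (-1.52 ± 0.28 SE, adjusted p = 0.00323). The chromokinesin KIF4A fell by 2.30, the microtubule depolymerase KIF2C by 2.23, HMMR by 1.96 and KIF14 by 1.94 on the log2 scale. KIF23, the kinesin of the centralspindlin complex, fell by 1.36 and KIF18A, which dampens chromosome movement, by 0.89.

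NUSAP1 and PRC1, which bind and bundle spindle microtubules, had the fewest counts of the 59 genes. In GENCODE v44, which may not be the release used for counting, other genes of the same strand overlap 86.8% of the exon length of NUSAP1 and 57.6% of that of PRC1. NUSAP1 was at 0.575, 0.837, 0.598, 0.603 and 0.538 CPM in controls and at 0.424, 0.373, 0.259, 0.283 and 0.452 in irradiated samples, a log2 fold change of -0.81 ± 0.19 (SE, adjusted p = 0.00968). PRC1 was at 0.608 to 1.33 CPM in controls and 0.284 to 0.403 in irradiated samples, with a log2 fold change of -1.56. These values rest on 510 and 714 counts in all. Exons of the opposite strand cover 34.3% of PRC1, 33.7% of NCAPG, 22.0% of SMC4, 15.9% of FOXM1 and 12.8% of PLK1, and a smaller share of every other gene of the 59, with CENPN next. The part of overlapping genes in the levels was not tested.

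Cytokinesis, a group of 3 genes, had the smallest median fall (-0.997, the value of RACGAP1) and held the gene that did not pass. This median depends on how genes were assigned to roles. KIF20A of the central spindle (-2.56) and KIF23 of centralspindlin (-1.36) were counted with the spindle motors. ANLN, which encodes anillin of the contractile ring, was at 24.5, 65.3, 23.4, 73.2 and 66.9 CPM in control replicates 1 to 5 and at 14.6, 10.1, 16.1, 17.2 and 14.4 in irradiated replicates 1 to 5 (log2 fold change -1.66 ± 0.32 SE, adjusted p = 0.00449). RACGAP1, the partner of KIF23 in centralspindlin, fell by 0.997 (adjusted p = 0.00481). ECT2 encodes the exchange factor that activates RhoA at the division site, and it is recruited there by RACGAP1. It lies on chromosome 3 from 172750682 to 172821474. Its controls stood at 51.1, 83.4, 68.2, 85.2 and 82.5 CPM and its irradiated samples at 78.8, 62.9, 83.8, 86.6 and 80.5. The groups overlapped, and the mean was 74.1 ± 14.5 CPM in controls and 78.5 ± 9.2 in irradiated samples (SD, n = 5 each). ECT2 was lower in pairs 2 and 5 only. Its controls 1 and 3 were the lowest 2, as for 56 of the other 58 genes. Without replicate 1 its log2 fold change was -0.0298 (adjusted p = 0.852 in edgeR), and without replicates 1 and 3 it was -0.14 (adjusted p = 0.242).

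The 7 genes of condensin and mitotic chromatin were lower with no overlap between groups. MKI67, whose product Ki-67 coats mitotic chromosomes and marks cycling cells, had the largest fall of all 59 genes. It was at 76.7, 220.4, 60.4, 233.9 and 216.7 CPM in controls and at 26.2, 15.3, 25.4, 29.6 and 23.5 in irradiated samples, a log2 fold change of -2.57 ± 0.39 (SE, adjusted p = 0.00141), close to that of KIF20A. TOP2A, the topoisomerase that untangles sister chromatids, was at 38.9, 130.8, 42.2, 135.7 and 126.4 against 22.3, 14.1, 27.7, 27.0 and 20.9 CPM (-1.91 ± 0.40 SE, adjusted p = 0.0058).

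The 5 genes of the condensin I complex divided by subunit. The ATPase SMC2 was at 33.3, 55.7, 40.8, 55.4 and 55.5 CPM in controls and at 25.1, 24.5, 24.1, 27.3 and 24.8 in irradiated samples (log2 fold change -0.91 ± 0.11 SE, adjusted p = 0.00054). Its partner SMC4 was at 45.9, 79.9, 44.4, 89.0 and 86.6 against 28.0, 27.9, 27.0, 29.0 and 28.0 CPM (-1.24 ± 0.16 SE, adjusted p = 0.000702), with irradiated samples that differed by little. The subunit NCAPD2 was at 57.7, 88.3, 52.5, 99.5 and 95.3 against 46.3, 43.2, 46.1, 48.8 and 45.2 CPM (-0.73 ± 0.15 SE, adjusted p = 0.00516). The kleisin NCAPH fell by 2.33 and the subunit NCAPG fell by 2.14 on the log2 scale. The ratio of NCAPH to SMC2 was 0.150 to 0.363 in controls and 0.0659 to 0.126 in irradiated samples, and that of NCAPG to SMC2 0.185 to 0.479 and 0.104 to 0.173. The ratio of NCAPD2 to SMC2, at 1.29 to 1.80 and 1.77 to 1.91, overlapped between groups. SMC2 and SMC4 also serve condensin II.

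Side by side, the median log2 fold change was -1.77 for the 5 checkpoint genes, -1.82 for the 15 kinetochore genes, -1.92 for the 11 spindle genes and -1.24 for the 5 condensin genes. The same medians within pairs 1 to 5 were -0.69, -2.62, -0.67, -2.36 and -2.43 for checkpoint genes and -0.89, -2.85, -0.70, -2.43 and -2.67 for kinetochore genes. They were -0.91, -2.65, -0.87, -2.37 and -2.41 for spindle genes and -0.71, -1.52, -0.76, -1.62 and -1.63 for condensin genes. In pairs 2, 4 and 5 the condensin median was the smallest fall of the 4 groups. In pairs 1 and 3, whose controls were low, the medians of the groups lay close together. These are descriptions of few genes that share their samples, and the difference between groups was not tested.

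Levels of different genes were compared per length of transcript. As mean CPM per kilobase, the control level was highest for CDC25B (38.7), PTTG1 (23.4), UBE2C (22.0), CCNB1 (21.9), CDC20 (19.8) and ECT2 (17.9). In irradiated samples CDC25B (19.3), ECT2 (19.0) and PTTG1 (12.1) were at higher levels per kilobase than CCNB1 (8.89), UBE2C (4.49) and CDC20 (3.79). At the lower end, NUSAP1 went from 0.278 to 0.158 and PRC1 from 0.326 to 0.106 CPM per kilobase, the genes with the fewest counts. In GENCODE v44 much of the exon length of NUSAP1 (86.8%) and PRC1 (57.6%) is overlapped by other genes of the same strand. The length used was not corrected for this, so the levels of NUSAP1 and PRC1 may be too low. Above them, CDC25C went from 1.19 to 0.252, CENPI from 1.26 to 0.465 and SKA1 from 1.64 to 0.346.

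Another 83 genes of mitosis, written down by complex, were read from the same test. Of these, 52 were lower and 3 higher, with a median log2 fold change of -0.43. Beside these counts and those of each list, 22.7% of all genes tested were lower and 23.9% higher. The 17 other spindle and cytokinesis genes had the lowest median of the 6 lists, at -1.37, with 16 lower. TROAP fell by 2.65, from 8.13 ± 3.23 to 1.23 ± 0.37 CPM (SD, n = 5 each), and DLGAP5, which stabilises kinetochore fibres, by 2.46. Of 13 other mitotic kinases and entry regulators, 10 were lower (median -0.90), NEK2 by 2.29 and PKMYT1, the kinase that inhibits CDK1, by 1.99. ARPP19, an inhibitor of the phosphatase PP2A-B55 at entry, was higher at 0.56 ± 0.07 (SE, adjusted p = 0.000702).

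Subunits of the anaphase-promoting complex, a ubiquitin ligase that also works in G1 and in resting cells, had log2 fold changes between -0.34 and 0.25. Of its 14 genes, 1 was lower and 1 was higher (median 0.04, or -0.03 when scaled by library size alone). CDC26 fell by 0.34 and CDC16 rose by 0.25 (adjusted p = 0.00211 and 0.00149), and the second largest negative value was that of ANAPC15, at -0.14 (adjusted p = 0.281). Of 13 genes of cohesin and its regulators, 9 were lower (median -0.30), with the centromeric protectors SGO1 (-1.63) and SGO2 (-1.04) the largest falls. SGO2 was not called without replicate 2, 4 or 5 (adjusted p of 0.0544 to 0.0797). Among 23 other kinetochore genes 13 were lower and 1 higher (median -0.40). HJURP, the chaperone that deposits CENPA, fell by 2.02 and KNL1, the scaffold for BUB1, by 1.96, while SPDL1, an adaptor of dynein, was higher at 0.55 (adjusted p = 0.0337). SPDL1 lost this call in 5 alternatives, 3 of them with a replicate left out. All 3 other condensin genes were lower (median -0.57), NCAPG2 of condensin II by 1.40 and NCAPH2 by 0.57.

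**Figure D5:**
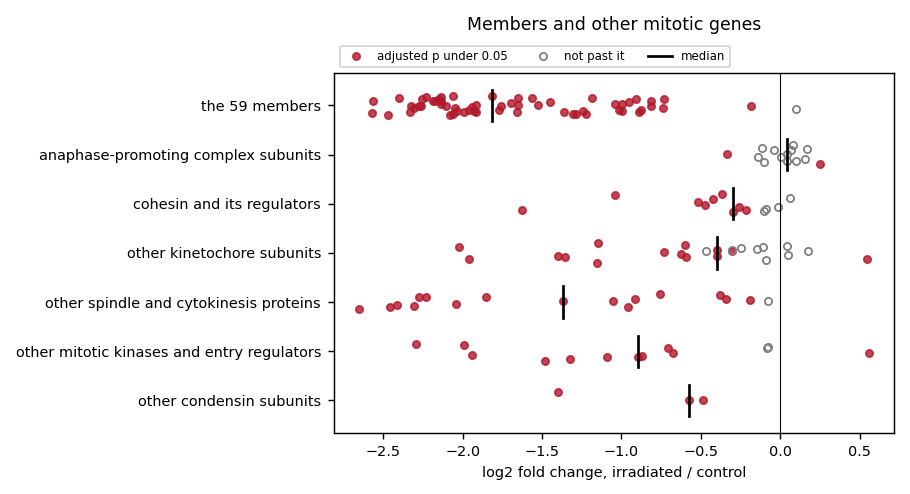
Log2 fold change, irradiated against control, of each gene in the set of 59 and in 6 lists of other mitotic genes; filled points passed an adjusted p-value of 0.05 and the black bar is the median. The 59 genes centre on -1.82 and the other spindle and cytokinesis genes on -1.37, while the subunits of the anaphase-promoting complex lie around 0.04.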

How the data were processed

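Per the labels and the study's methods, polyadenylated RNA was sequenced, and the authors trimmed reads with Trim-Galore, aligned them to GRCh38 (hg38) with STAR and deposited its counts per gene, neither normalised nor filtered. The GENCODE release is not given in the sources used here. The deposited values are whole-number counts in 5 irradiated and 5 control samples, all used. Counting ignored strand: no count fell on any of 17 protein-coding genes whose exons all lay under those of a gene on the other strand, while 9.38% of 10519 genes free of overlap had none. Coordinates, overlaps and 61415 symbols came from GENCODE v44.

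Genes reaching 200 counts in the 10 samples together were tested with edgeR 4.0.16 in R 4.3.3 (TMM, glmQLFit, glmQLFTest), with Benjamini-Hochberg adjustment, a threshold of 0.05, and replicate number as a block, as in the study's model. Deviations from group means correlated between samples of the same number (0.51, 0.22, 0.34, 0.39 and 0.35 for replicates 1 to 5, across genes). Between different numbers the correlations ran from -0.35 to 0.32, with a median of -0.13. Numbers were taken to pair samples, though the value of replicate 2 lay within the range of different numbers and does not single out its pair. Standard errors are the log2 fold change over the square root of the F statistic. CPM are TMM-scaled, and pair differences use log2 CPM with a prior count of 2. Alternatives were DESeq2 1.42.0, limma-voom (limma 3.58.1), other scalings and filters, no block, samples left out, and glmTreat. Figures were drawn with matplotlib 3.10.9.

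The 59 genes and the lists were chosen with earlier results of these data known. All 59 are given by role, with values per sample for 20 genes picked for their function and for the largest and smallest fall of each role, and every gene that did not pass or rose is named. Of the other mitotic genes, those that rose and the 2 largest falls of each list are named, and RefSeq promoters are shown for 5 chosen genes and for those that did not pass. How much of the spread between replicates comes from counting was not tested.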

Additional observations from a re-analysis of the deposited data

Results flagged for a closer look

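By Dixon's test for groups of 5, which sets the gap between a sample and its nearest neighbour against the range of the group, a sample stood apart in 3 of 118 groups of values (59 genes in both conditions), where chance gives 5.9. CDC25B stood at 204.8 CPM in control replicate 3, with the other controls at 85.8 to 116.3. With control replicate 1, this sample was among the lowest 2 controls for 57 of the 59 genes, and it was high for CDKN1A at 207.6 CPM. KIF14 stood at 1.84 CPM in irradiated replicate 2, with the others at 2.92 to 3.21. That sample was the lowest irradiated sample for 51 of the 59 genes and had the fewest counts (66269311). NUSAP1 stood at 0.837 CPM in control replicate 2, with the others at 0.538 to 0.603, a gene of 510 counts in all.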

How the results depend on the processing

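Over 14 alternative fits, the number of the 59 genes called lower ran from 52 to 58 and that of genes called higher was 0 in each. More than 2-fold falls numbered 42 to 55, except in the test against a 2-fold fall (glmTreat), where 18 passed. For glmTreat no share of all genes was counted. Leaving out 1 replicate gave 52 to 58 lower, 42 to 54 more than 2-fold lower and 45 to 55 of the other 83 mitotic genes lower. Without the replicate block 57 were lower, 50 of them more than 2-fold, and 52 of the other 83 were lower; BUB3 was the call lost (adjusted p = 0.0517 in edgeR). With both samples of replicates 1 and 3 left out, an alternative chosen after seeing the data, 58 were lower, 55 by more than 2-fold, and 62 of the other 83 were lower. Scaled by library size alone, 38.0% of all calls were higher instead of 51.4%, the median of all genes moved by -0.08, and 58 of the 59 genes were lower.

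Call and direction held in all 14 fits for 52 of the 59 genes. AURKA, CENPI and ZWINT lost their call without replicate 4 or 5 (adjusted p of 0.0572 to 0.0668 in edgeR), and CENPN, SPC25 and SGO2 without replicate 2, 4 or 5 (0.0544 to 0.101). ECT2 turned in direction without replicate 1 (-0.0298) and without replicates 1 and 3 (-0.14), reached 0.24 without replicate 2, and never passed. The fewest counts behind a value were 510 for NUSAP1 and 714 for PRC1, and whether depth limits them was not tested.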
